A study of Mus musculus with 12 samples.

Results

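The cardiac calcium handling genes are 9 genes whose products move, store or sense calcium in heart muscle cells, namely Atp2a2, Pln, Sln, Ryr2, Casq2, Hrc, Slc8a1, Cacna1c and Camk2d. They are 9 of the 18193 genes that at least 1 probe set of the array names alone. All 28 probe sets that the platform annotation assigns to 1 of these genes alone were taken, of 45037 probe sets other than array controls, and 23 of the 28 passed the filter on low signals. The genes were chosen for their role in calcium handling.

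In the heart, calcium that enters through the L-type channel opens ryanodine receptors on the sarcoplasmic reticulum, and the calcium released there drives contraction. Relaxation follows when the SERCA2a pump returns calcium to the reticulum and the sodium-calcium exchanger carries the rest out of the cell. Phospholamban and sarcolipin are small membrane proteins that restrain the pump, sarcolipin being mainly an atrial protein in the mouse heart, and CaMKII phosphorylates phospholamban and the ryanodine receptor.

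RNA was taken from 12 hearts of C57BL/6 mice at an age of 8 to 9 weeks, and each heart was read on an Affymetrix mouse array of its own. The groups were 3 hearts labelled ILKR211A Tg, 3 labelled ILKS343D Tg and 6 from WT littermates. Both transgenes drive a mutant integrin-linked kinase in the heart only, R211A being an activation-resistant form and S343D a constitutively active form, and no source used here names the promoter. The study set these genotypes against each other to look for transcripts that go with protection of the heart, and the labels name no surgery on these animals.

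The WT hearts carry 2 runs of numbers in their titles, called here the first set (replicates 1 to 3) and the second set (replicates 4 to 6), and the labels do not say which line either set belongs to. WT replicate 1 is labelled male and all others female, and only the description of WT replicate 1 names the left ventricle as the tissue. Signals of Ilk averaged 8799 ± 682 in ILKR211A Tg hearts, 3515 ± 434 in ILKS343D Tg hearts and 601 ± 39.0 in WT hearts (SD, n = 3, 3 and 6), so that all 6 transgenic hearts stood apart from all WT hearts. The 9 genes listed as ventricular markers were Myl2, Myl3, Myh6, Tnni3, Tnnt2, Actc1, Ttn, Irx4 and the member Ryr2. Not all of them are confined to ventricular muscle. Their summed signal was 82037 to 91938 in ILKR211A Tg hearts, 76179 to 83352 in ILKS343D Tg hearts and 78824 to 94918 in WT hearts. Median signals of the arrays lay between 41.5 and 49.1, and precision is limited by how many arrays each group has.

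None of the 23 probe sets passed the test in any comparison. Differences were tested with limma on log2 signal, with 3 genotype groups over all 12 hearts, and a call is a Benjamini-Hochberg adjusted p under 0.05 over all 22519 probe sets tested. In ILKR211A Tg against WT hearts 0 of 23 were called, where 0.204% of all probe sets were called. In ILKS343D Tg against WT hearts 0 of 23 were called, where 0.00444% of all were. Between ILKR211A Tg and ILKS343D Tg hearts 0 of 23 were called, where 0.16% of all were. Since so few probe sets were called in all, a count of 0 among 23 does not set the calcium handling genes apart.

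At an unadjusted p under 0.05, 2 of the 23 probe sets (8.7%) stood out in each comparison, against 7.51% of all probe sets for ILKR211A Tg against WT, 3.98% for ILKS343D Tg against WT and 8.45% for ILKR211A Tg against ILKS343D Tg. They were Cacna1c 1435730_at and Camk2d 1439168_at in the first, Ryr2 1421126_at and Slc8a1 1437675_at in the second, and Ryr2 1421126_at and Cacna1c 1435730_at in the third. Median log2 fold changes over the 23 probe sets were 0.030, −0.039 and 0.060 in that order, beside 0.00081, 0.0026 and −0.0047 over all probe sets tested. Both comparisons with WT use the same 6 WT hearts and are therefore not independent of each other. In these bulk samples, fewer cells of a type and less RNA per cell cannot be told apart.

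**Figure D1:**
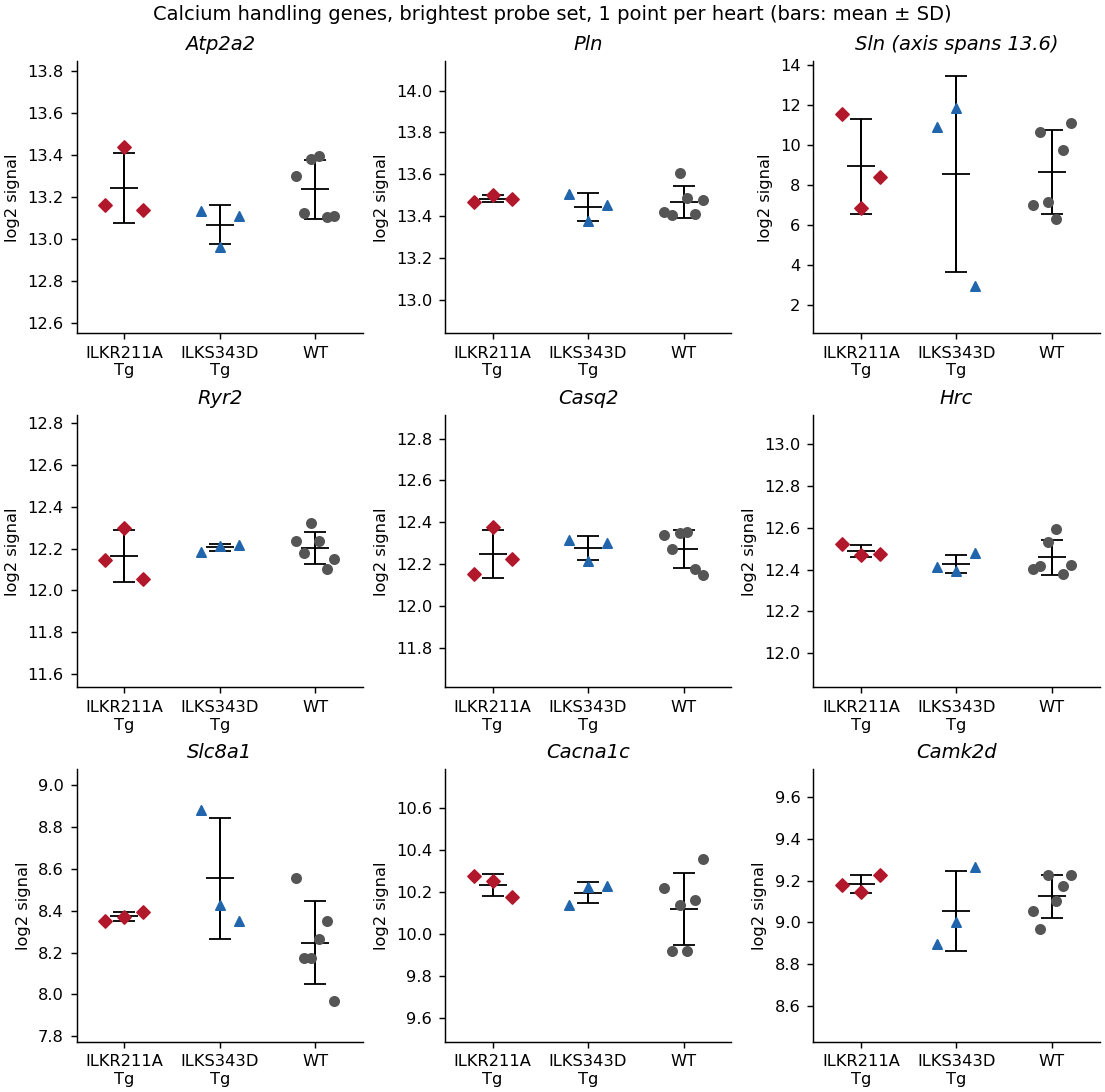
Log2 signal of the brightest probe set of each of the 9 genes, with 1 point per heart and the mean ± SD of each group as bars, for ILKR211A Tg, ILKS343D Tg and WT hearts from left to right. The axes of all panels but Sln span the same width. For all 9 genes the ILKR211A Tg hearts and the ILKS343D Tg hearts each overlap with the WT hearts. Sln spreads over 8.88 log2 units across all hearts. Both ends of that range are ILKS343D Tg hearts (2.96 to 11.85), beside 6.87 to 11.56 in ILKR211A Tg and 6.31 to 11.10 in WT hearts.

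Neither the pump nor phospholamban had a called difference between the genotypes. Atp2a2 encodes the SERCA2 pump, whose 2a isoform is the cardiac one, and its brightest probe set 1452363_a_at read 9150, 11085 and 8999 in ILKR211A Tg hearts and 8971, 7973 and 8833 in ILKS343D Tg hearts, against a lowest, median and highest signal of 8808, 9515 and 10770 in WT hearts. The ILKR211A Tg hearts lay within or just above the WT range, ILKS343D Tg replicate 2 lay below it, and the highest heart of all had 1.39 times the signal of the lowest. The log2 fold change was 0.01 for ILKR211A Tg against WT (95% interval −0.18 to 0.19; limma, adjusted p = 0.996). For ILKS343D Tg against WT it was −0.17 (95% interval −0.35 to 0.02; limma, adjusted p = 0.995).

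All 3 ILKR211A Tg hearts lay above all 3 ILKS343D Tg hearts for this Atp2a2 probe set, with a log2 fold change of 0.18 that was not called (limma, adjusted p = 0.662). Across the 23 probe sets, 4 (17.4%) had all ILKR211A Tg hearts on 1 side of all ILKS343D Tg hearts, where 15% of all probe sets did, and all 4 were higher in ILKR211A Tg hearts, as 7.55% of all were. They belong to Atp2a2, Pln, Ryr2 and Cacna1c. With 3 hearts against 3 an exact permutation test cannot give a p below 0.1.

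The other 5 probe sets of Atp2a2 did not all follow the brightest one. Over the 12 hearts 1416551_at (r = 0.95), 1427250_at (r = 0.74) and 1427251_at (r = 0.61) varied with it. The dimmer 1437797_at (r = −0.59) and 1443551_at (r = −0.59) varied against it. Log2 fold changes of ILKS343D Tg against WT were −0.13 for 1416551_at, −0.09 for 1427251_at, −0.05 for 1437797_at and 0.06 for 1443551_at. For 1427250_at all 3 ILKS343D Tg hearts (4132, 3977 and 4220) lay below all 6 WT hearts (4273, 4299 and 5080 as lowest, median and highest), by −0.13 on the log2 scale. The ILKR211A Tg hearts read 3889, 4413 and 4143, so that 2 of 3 also lay below all WT hearts, with a log2 fold change of −0.12 against WT. In the comparison of ILKS343D Tg with WT this was the only member probe set of 23 (4.35%) without overlap, where 2.03% of all probe sets had none, and it was not called (limma, unadjusted p = 0.0688, adjusted p = 0.995).

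Pln encodes phospholamban, the main restraint on the pump in ventricular muscle. Its brightest probe set 1460332_at read 11332, 11586 and 11435 in ILKR211A Tg hearts and 11649, 10627 and 11222 in ILKS343D Tg hearts, against 10865, 11176 and 12463 as lowest, median and highest in WT hearts. For this probe set the groups overlapped throughout and the hearts differed by 1.17-fold at most. The log2 fold change was 0.02 for ILKR211A Tg (95% interval −0.10 to 0.13) and −0.02 for ILKS343D Tg (95% interval −0.14 to 0.09) against WT. Within genotypes the SD of 1460332_at was 0.065 on the log2 scale. The median for the probe sets nearest to it in mean signal was 0.096. The dimmer Pln probe sets 1423359_at and 1450952_at had 0.092 and 0.126. For ILKS343D Tg against WT, these dimmer probe sets gave −0.08 and −0.12, and for ILKR211A Tg against WT they gave 0.04 and −0.0013. Each gave 0.12 for ILKR211A Tg against ILKS343D Tg, with no overlap for 1423359_at. None of these differences was called.

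Sarcolipin behaved unlike every other member. Sln, read from 1420884_at, had signals of 3011, 117 and 338 in ILKR211A Tg hearts and of 1919, 3682 and 7.79 in ILKS343D Tg hearts. In WT hearts it had 128, 1623, 143, 79.2, 867 and 2202 for replicates 1 to 6. Each genotype therefore held hearts with a high and hearts with a low Sln signal, and the lowest heart, ILKS343D Tg replicate 3, lay below the signal of 43.5 that served as filter for the mean.

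The spread of Sln within genotypes, an SD of 3.00 on the log2 scale, ranked 1 among the 22519 probe sets tested, whose median SD was 0.179. Differences between genotypes were small beside it, with a log2 fold change of 0.28 ± 1.67 (SE) for ILKR211A Tg against WT and −0.09 ± 1.67 for ILKS343D Tg against WT (limma, adjusted p = 0.989 and 0.999). Without ILKS343D Tg replicate 3 the value for ILKS343D Tg against WT was 2.71 (limma, adjusted p = 0.878), and with each other heart left out in turn it lay between −1.73 and 0.39. The 95% interval of −3.29 to 3.85 for ILKR211A Tg against WT leaves room for changes of Sln of several fold in either direction. The second Sln probe set, 1420883_at, was dim on all arrays, with signals of 5.26 to 33.9, and was not tested.

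Sln varied between hearts together with transcripts of atrial muscle. The atrial myosin light chain gene Myl7 followed Sln across the 12 hearts with r = 0.973 and rho = 0.965, and Myl4, which encodes the other atrial light chain, with r = 0.955 and rho = 0.972. Both had a permutation p of 1e-05, the smallest that 100000 resamples can give, and a Benjamini-Hochberg adjusted p of 5e-05 for r over the 10 markers compared. Without the 2 hearts farthest from the median of Sln, r was 0.975 for Myl7 and 0.989 for Myl4, and for deviations from the genotype means it was 0.977 and 0.969.

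Of the 12 atrial markers listed, 11 had a probe set of their own and 10 passed the filter. Besides Myl7 and Myl4, r with Sln was 0.930 for Nppa, which encodes atrial natriuretic peptide, 0.879 for Dkk3, 0.873 for Mybphl, 0.830 for Stard10, 0.792 for Nr2f2, 0.767 for Bmp10 and 0.624 for Kcnj3 (permutation p = 2e-05, 0.00029, 0.00034, 0.00078, 0.00186, 0.00363 and 0.0306). Their rho was 0.909, 0.888, 0.951, 0.951, 0.881, 0.594 and 0.643, and the Benjamini-Hochberg adjusted p of r was 0.034 or lower for all of these. Tbx5 went the other way, with r = −0.610 (rho = −0.434, permutation p = 0.0354), but r was −0.262 without the 2 hearts farthest from the median, so that this relation rests on those hearts. Among the 11188 other genes with a probe set past the filter, Myl7 and Myl4 were the 2 most like Sln and Nppa ranked 4.

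The atrial level itself varied widely within each genotype, and no difference of either line from WT was found. The lines were not tested against each other for it. The summed signal of the 11 atrial markers with a probe set was 19821, 3755 and 5190 in ILKR211A Tg hearts, 11908, 20156 and 3323 in ILKS343D Tg hearts and between 3810 and 15979 in WT hearts. An exact permutation test of their mean log2 signal gave p = 0.881 for ILKR211A Tg against WT and p = 0.75 for ILKS343D Tg against WT (two-sided). The sum of the 9 ventricular markers named above varied by 1.25-fold over the same hearts, and the atrial sum by 6.07-fold. Since not all 9 are confined to ventricular muscle, their sum does not give the ventricular part of a heart. Myl2 alone varied by 1.38-fold. Of 11 markers of skeletal muscle, a further tissue that makes sarcolipin, only Acta1 passed the filter. With the mean atrial level as a covariate, an alternative added after the data were seen, Sln differed by −0.02 for ILKR211A Tg and by −0.89 for ILKS343D Tg against WT, again with no call (limma, unadjusted p = 0.969 and 0.10), and 0 of the 23 probe sets were called in each comparison.

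**Figure D2:**
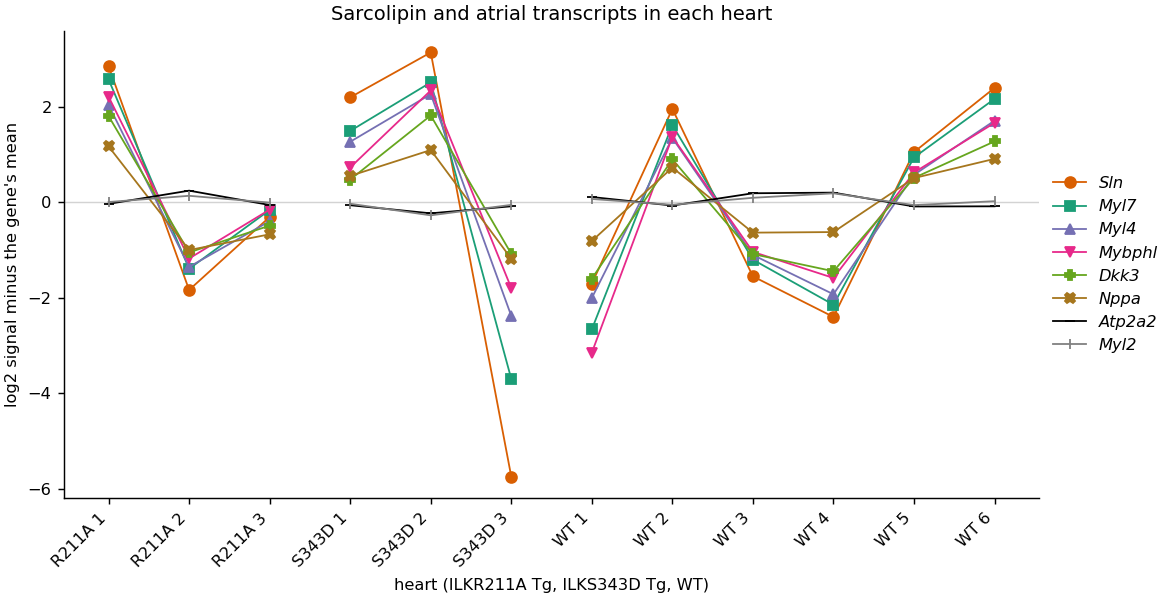
Log2 signal of Sln, of the atrial transcripts Myl7, Myl4, Mybphl, Dkk3 and Nppa, of Atp2a2 and of the ventricular Myl2 in each of the 12 hearts, less the mean of that gene over the hearts. Sln and the 5 atrial transcripts are high and low in the same hearts of each genotype, from ILKS343D Tg replicate 2 with the highest Sln signal of 3682 to ILKS343D Tg replicate 3 with the lowest of 7.79, while Atp2a2 and Myl2 stay near 0.

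The release channel gave a different picture for each of its probe sets. Ryr2 encodes the cardiac ryanodine receptor, through which the reticulum releases calcium. Its brightest probe set 1450123_at read 4533, 5037 and 4249 in ILKR211A Tg hearts and 4657, 4750 and 4758 in ILKS343D Tg hearts, against 4400, 4727 and 5116 as lowest, median and highest in WT hearts. The groups overlapped, and the log2 fold change was −0.04 for ILKR211A Tg (95% interval −0.17 to 0.09) and 0.00 for ILKS343D Tg (95% interval −0.13 to 0.13) against WT.

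The dimmer Ryr2 probe set 1421126_at read 1252, 1273 and 1124 in ILKR211A Tg hearts and 736, 858 and 989 in ILKS343D Tg hearts, against 960, 1041 and 1245 as lowest, median and highest in WT hearts. The ILKR211A Tg hearts lay high in the WT range or above it, the ILKS343D Tg hearts low in it or below it, and the genotypes did not overlap each other. The log2 fold change of ILKR211A Tg against ILKS343D Tg was 0.51 ± 0.11 (SE; limma, unadjusted p = 0.000438, adjusted p = 0.124), which is not a call.

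Against WT, Ryr2 1421126_at differed by 0.20 for ILKR211A Tg (limma, adjusted p = 0.677) and by −0.31 for ILKS343D Tg (limma, adjusted p = 0.995), each with an exact permutation p of 0.0476 before adjustment. With a heart left out in turn the adjusted p for ILKR211A Tg against ILKS343D Tg was 0.0634 to 0.460, and under the other alternatives fitted with limma it was 0.072 to 0.566. The signals of both Ryr2 probe sets gave r = 0.10 over all 12 hearts and r = 0.42 for deviations from the genotype means. The files do not say which part of the transcript a probe set reads.

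The buffers in the lumen of the reticulum were flat. Casq2, the cardiac calsequestrin that stores calcium next to the release channel, read 4554, 5318 and 4781 in ILKR211A Tg hearts and 5104, 4748 and 5044 in ILKS343D Tg hearts, against 4535, 5065 and 5233 as lowest, median and highest in WT hearts. Hrc, the histidine-rich calcium binding protein, read 5881, 5670 and 5688 in ILKR211A Tg hearts and 5456, 5382 and 5702 in ILKS343D Tg hearts, against 5334, 5483 and 6180 in WT hearts. All groups overlapped with WT. The log2 fold changes against WT were −0.02 and 0.00 for Casq2 and 0.03 and −0.03 for Hrc in ILKR211A Tg and in ILKS343D Tg hearts, and the 95% intervals of all 4 lay between −0.16 and 0.15.

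At the cell surface, the L-type channel and the exchanger showed differences that did not pass the test. Cacna1c encodes the pore of the L-type channel. Its brightest probe set 1421297_a_at averaged 1204 ± 42.8 in ILKR211A Tg hearts, 1175 ± 40.3 in ILKS343D Tg hearts and 1118 ± 133 in WT hearts (SD, n = 3, 3 and 6), and the groups overlapped. The probe set 1435730_at read 333, 387 and 320 in ILKR211A Tg hearts and 236, 296 and 268 in ILKS343D Tg hearts, against 238, 295 and 332 as lowest, median and highest in WT hearts.

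For Cacna1c 1435730_at, 2 of 3 ILKR211A Tg hearts lay above all WT hearts, and all 3 lay above the ILKS343D Tg hearts. The log2 fold change was 0.27 ± 0.11 for ILKR211A Tg against WT (SE; limma, unadjusted p = 0.0272, adjusted p = 0.598) and 0.38 ± 0.13 for ILKR211A Tg against ILKS343D Tg (SE; limma, unadjusted p = 0.00985, adjusted p = 0.423). For the brightest probe set the same differences were 0.12 and 0.04. The ILKS343D Tg hearts and the first WT set carry the heart numbers 1 to 6. Those of the ILKR211A Tg hearts and the second WT set are 7 to 12. A direct comparison of the lines therefore also compares these ranges of heart numbers. Between the WT sets, 1435730_at differed by 0.12 ± 0.13 (second minus first, SE). A block of title numbers within those ranges was an alternative added after the data were seen. With it, ILKR211A Tg against ILKS343D Tg gave 0.03 for 1435730_at (limma, adjusted p = 0.975). That fit left out WT replicate 1 and ILKS343D Tg replicate 1, whose title has no number. The value of 0.03 was the lowest among the alternatives, which reached 0.45. With each heart left out in turn it was 0.29 to 0.46.

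Slc8a1 encodes the sodium-calcium exchanger, and its brightest probe set 1437675_at read 326, 331 and 337 in ILKR211A Tg hearts and 472, 344 and 327 in ILKS343D Tg hearts. WT hearts had 250, 298 and 376 as lowest, median and highest. ILKS343D Tg replicate 1 lay above every other heart and the remaining ILKS343D Tg hearts lay within the WT range. The log2 fold change of ILKS343D Tg against WT was 0.31 ± 0.13 (SE; limma, unadjusted p = 0.0282, adjusted p = 0.995), and it was 0.14 without ILKS343D Tg replicate 1 (limma, unadjusted p = 0.262). The value for ILKR211A Tg against WT was 0.13. The probe sets 1425817_a_at and 1420210_at gave 0.05 and 0.29 for ILKS343D Tg against WT. For ILKR211A Tg against WT they gave 0.25 and 0.08.

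Camk2d encodes the delta form of CaMKII, the main form in heart muscle. Its brightest probe set 1427763_a_at averaged 582 ± 16.7 in ILKR211A Tg hearts, 535 ± 71.9 in ILKS343D Tg hearts and 560 ± 39.3 in WT hearts (SD, n = 3, 3 and 6), with log2 fold changes of 0.06 and −0.07 against WT. The dim probe set 1439168_at read 136, 169 and 157 in ILKR211A Tg hearts and 151, 167 and 109 in ILKS343D Tg hearts, against 93.1, 117 and 134 as lowest, median and highest in WT hearts.

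For Camk2d 1439168_at, all ILKR211A Tg hearts lay above all WT hearts, the only probe set of the 23 (4.35%) without overlap in that comparison, where 4.07% of all probe sets had none. Its log2 fold change was 0.41 ± 0.15 (SE; limma, unadjusted p = 0.0152, adjusted p = 0.514; exact permutation p = 0.0238). The probe sets 1422659_at and 1459457_at gave −0.07 and −0.01 for the same comparison. For Camk2d, 1439168_at did not vary with the brightest probe set over the hearts (r = −0.03). The 3 Camk2d probe sets below the filter had signals of 1.58 to 56.9, and the 1 of Slc8a1 below it, 1440201_at, had 24.4 to 56.9.

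**Figure D3:**
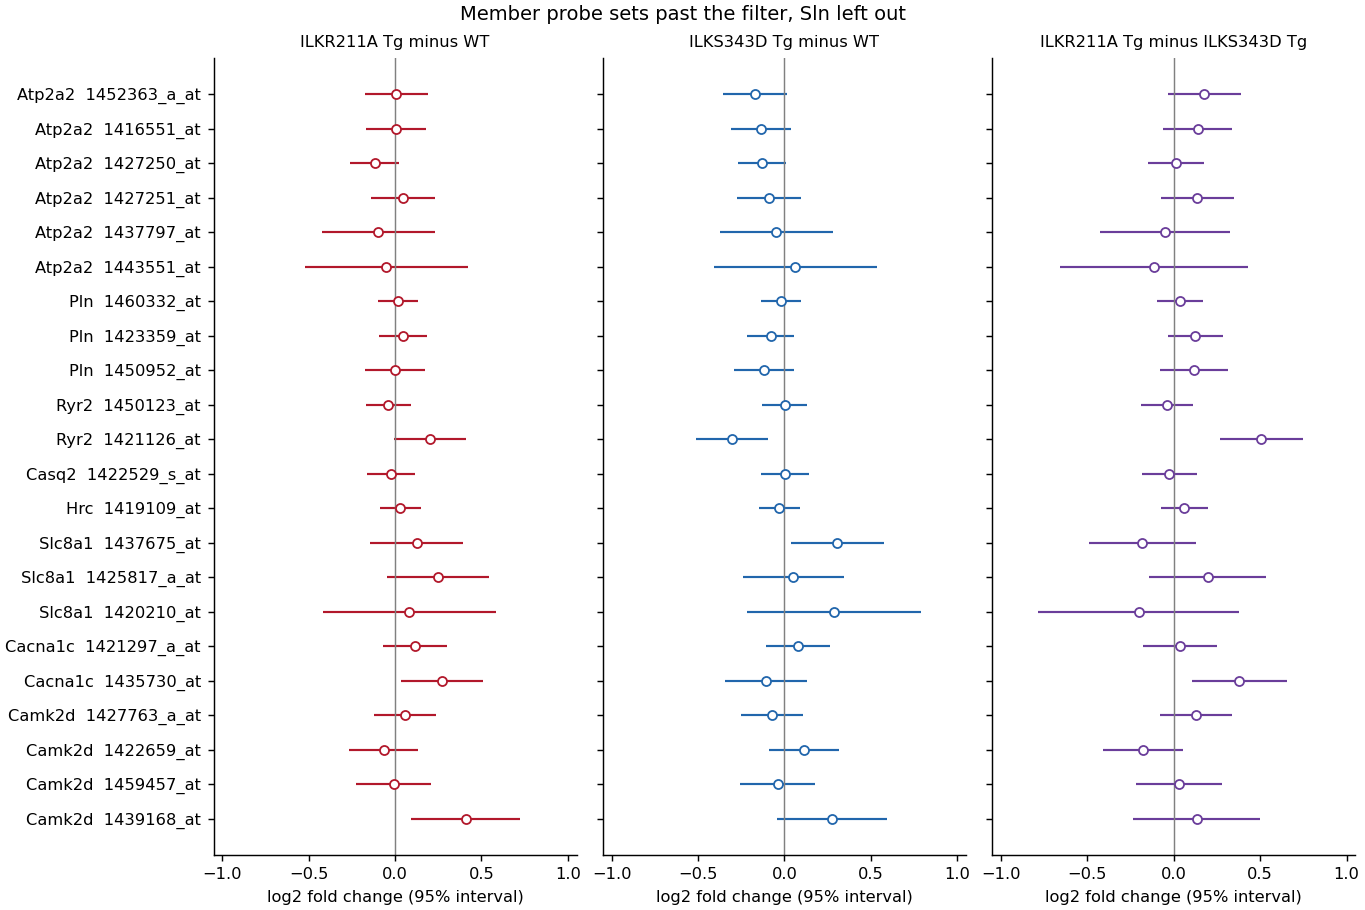
Log2 fold changes with 95% intervals of the 22 member probe sets past the filter other than Sln, whose interval exceeds the axis, for ILKR211A Tg minus WT, ILKS343D Tg minus WT and ILKR211A Tg minus ILKS343D Tg from left to right. Most points lie near 0, and 0 of 23 probe sets including Sln passed the adjusted threshold in each comparison.

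**Figure D4:**
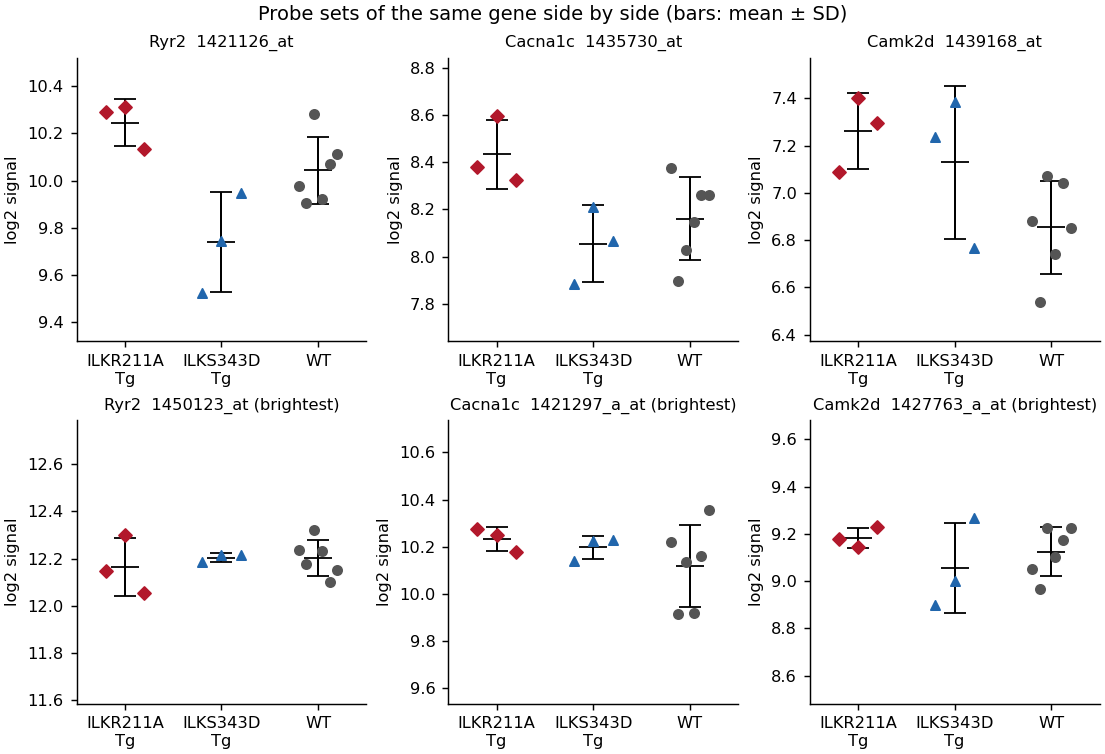
Log2 signal by heart of a dimmer probe set (top) and the brightest probe set (bottom) of Ryr2, Cacna1c and Camk2d, with 1 point per heart and mean ± SD as bars, in ILKR211A Tg, ILKS343D Tg and WT hearts from left to right on axes of equal width. For Ryr2 1421126_at the ILKR211A Tg hearts (1124 to 1273) and the ILKS343D Tg hearts (736 to 989) separate from each other while both overlap with the WT hearts (960 to 1245), and for Ryr2 1450123_at the groups overlap.

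None of the pairs of members passed the test for varying together. Over the 36 pairs of the 9 genes, r across the 12 hearts ranged from −0.643 to 0.755 and 0 pairs passed a Benjamini-Hochberg adjusted permutation p of 0.05. The pair with the highest r was Ryr2 with Casq2 (r = 0.755, rho = 0.818, permutation p = 0.00398, adjusted p = 0.14), followed by Atp2a2 with Casq2 (r = 0.735, rho = 0.762, permutation p = 0.00775, adjusted p = 0.14). Leaving out the 2 hearts farthest from the median gave r = 0.831 and r = 0.588 for these pairs. For deviations from the genotype means r was 0.751 for Ryr2 with Casq2, 0.916 for Atp2a2 with Casq2 and 0.832 for Atp2a2 with Ryr2 (no test). The lowest r was that of Sln with Casq2 (r = −0.643, rho = −0.734, permutation p = 0.0241, adjusted p = 0.182; r = −0.725 without the 2 farthest hearts).

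**Figure D5:**
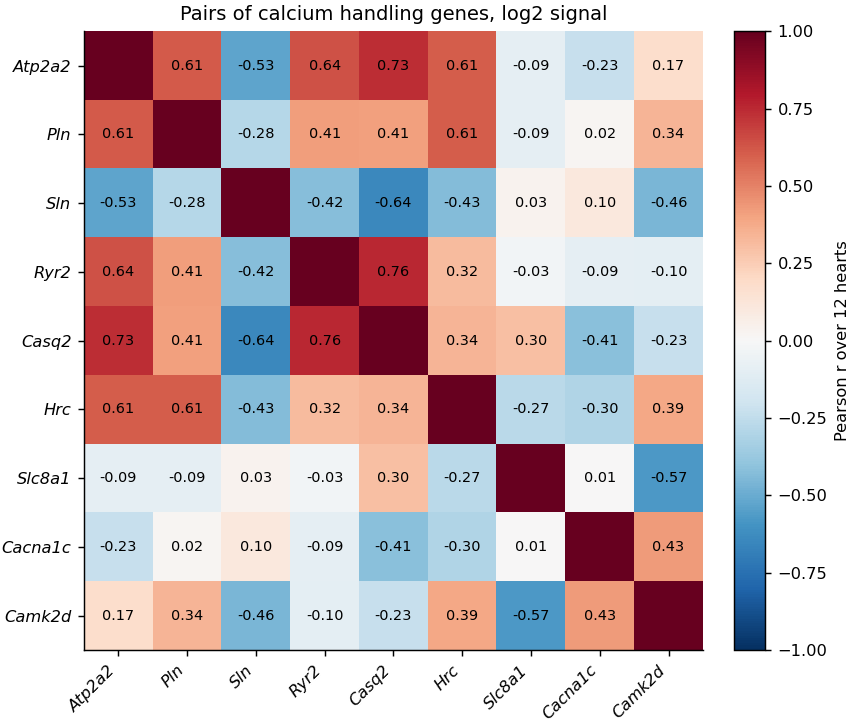
Pearson r over 12 hearts of log2 signal for each pair of the 9 genes, read from their brightest probe sets. Atp2a2, Ryr2 and Casq2 form the pairs with the highest r (up to 0.755 for Ryr2 with Casq2), and r of Sln with Casq2 is the lowest at −0.643.

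The WT sets, compared in the same way, gave counts of like size. Between the second and the first WT set 0 of the 23 probe sets were called, where 0.00888% of all were, and 2 (8.7%) had an unadjusted p under 0.05, where 7.99% of all did. They were Atp2a2 1437797_at, with a log2 fold change of 0.38, and Camk2d 1459457_at, with 0.23 (limma, unadjusted p = 0.0255 and 0.038). The median log2 fold change of the 23 between the sets was 0.046.

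The wider calcium machinery gave the same count. Of 134 further genes listed by role, 116 had a probe set that names them alone and 100 passed the filter, and 0 of the 100 were called in each comparison. Of all 11189 genes tested, 23 were called for ILKR211A Tg against WT (0.206%), 1 for ILKS343D Tg against WT (0.00894%) and 17 for ILKR211A Tg against ILKS343D Tg (0.152%), so that a count of 0 among 100 does not set the list apart. At an unadjusted p under 0.05, 4 were higher and 1 lower in ILKR211A Tg against WT hearts (5%, against 7.52% of all genes). For ILKS343D Tg against WT 2 were higher and 1 lower (3%, against 3.79%), and for ILKR211A Tg against ILKS343D Tg 8 were higher and 5 lower (13%, against 7.85%). The median log2 fold change of the 100 genes was 0.0027 for ILKR211A Tg against WT, −0.0035 for ILKS343D Tg against WT and 6.7e-05 for ILKR211A Tg against ILKS343D Tg.

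The smallest p for ILKR211A Tg against WT in the wider list was that of Trdn, which encodes triadin, the protein that ties calsequestrin to the ryanodine receptor. Its brightest probe set 1451801_at read 2609, 2504 and 2739 in ILKR211A Tg hearts and 3415, 3416 and 2837 in ILKS343D Tg hearts, against 3126, 3202 and 3455 as lowest, median and highest in WT hearts. All ILKR211A Tg hearts lay below all WT and all ILKS343D Tg hearts. The log2 fold change against WT was −0.32 ± 0.07 (SE; limma, adjusted p = 0.0882; exact permutation p = 0.0119, the smallest that 3 hearts against 6 allow).

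The Trdn call depended on the fit. The adjusted p was 0.0246 without ILKS343D Tg replicate 3, 0.0487 with only ILKR211A Tg and WT hearts in the fit and 0.0491 with the atrial level as a covariate, and it was up to 0.364 under the other alternatives. Of the 5 other Trdn probe sets, 1426144_x_at differed by −0.30 (limma, unadjusted p = 0.00534, adjusted p = 0.355) with no overlap between ILKR211A Tg (561 to 681) and WT hearts (727 to 891). The others gave −0.29 ± 0.29 for 1426143_at, −0.18 ± 0.11 for 1426142_a_at, 0.03 ± 0.10 for 1451940_x_at and 0.09 ± 0.09 for 1426134_at (SE). Against ILKS343D Tg hearts, Trdn 1451801_at differed by −0.30 (limma, adjusted p = 0.226).

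Other genes of the wider list are given as values, since none was called. Adcy5, an adenylyl cyclase of heart muscle that makes cyclic AMP, had signals of 521 to 530 in ILKR211A Tg hearts, 396 to 477 in ILKS343D Tg hearts and 389 to 490 in WT hearts, a log2 fold change of 0.29 for ILKR211A Tg against WT (limma, adjusted p = 0.309). A dimmer Adcy5 probe set, 1447696_x_at, gave −0.26 ± 0.22 (SE). Cacna1g, which encodes a T-type calcium channel, had 155 to 194 in ILKR211A Tg hearts, 103 to 142 in ILKS343D Tg hearts and 86.9 to 134 in WT hearts, a log2 fold change of 0.47 for ILKR211A Tg against WT (limma, adjusted p = 0.403). The ILKR211A Tg hearts lay above all other hearts for these probe sets of both genes.

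Camk2n1, an inhibitor of CaMKII, had signals of 364 to 427 in ILKR211A Tg hearts, 474 to 526 in ILKS343D Tg hearts and 369 to 463 in WT hearts. The ILKS343D Tg hearts lay above all others, with a log2 fold change of 0.20 against WT (limma, adjusted p = 0.995) and one of −0.32 for ILKR211A Tg against ILKS343D Tg (limma, adjusted p = 0.345). The dimmer Camk2n1 probe set 1440455_at gave 0.27 and 0.02 for these comparisons. Of the auxiliary subunits of the L-type channel, Cacnb2 differed by 0.29 and Cacna2d1 by −0.20 for ILKR211A Tg against ILKS343D Tg (limma, adjusted p = 0.462 and 0.507). Values for ILKS343D Tg against WT were 0.69 for Nfatc4, a transcription factor that calcineurin activates, and −0.59 for Ppp1r3a, a protein phosphatase subunit (limma, adjusted p = 0.995 for both). Ppp1r3a read 104, 106 and 38.4 in ILKS343D Tg hearts, against 91.4 to 126 in WT hearts, and without ILKS343D Tg replicate 3, the only one below the WT range, the value was −0.11. Skeletal calsequestrin Casq1 and the store-operated channel gene Orai3 gave 0.36 and 0.26 for ILKR211A Tg against WT (limma, adjusted p = 0.56 and 0.563).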

How the data were processed

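The authors deposited 1 table of MAS5 signal intensities on a linear scale, scaled per array by their software. The software version is not given in the sources used here, and detection calls were not used. The log2 of each deposited signal was used with no offset and no further scaling. The 64 array controls were left out, and the test was run on the 22519 probe sets whose mean log2 signal reached the median of 5.44 (a signal of 43.5), using limma 3.58.1 in R 4.3.3 (lmFit and eBayes with a trend, 3 groups, 12 arrays, two-sided, Benjamini-Hochberg, threshold 0.05). Single probe sets were also compared by exact permutation, with 84 splits for 3 against 6 hearts. A gene was read from its brightest probe set, and levels of different probe sets were not compared.

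The methods describe groups with and without infarction, whereas the labels name 3 genotypes only, so no such comparison was made. The design text counts 4 groups of 3 mice as biological replicates. The members, gene lists, tests and named genes were chosen with earlier results of these data known. The rule named all members, Ilk, the 3 genes most like a member, and the genes of each wider list with the smallest p in a comparison, of which the values with the smallest p are printed. The procedure was tested on simulated data.

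The labels state no pairing of hearts, and the main fit used none. Same-numbered ILKR211A Tg hearts and hearts of the second WT set deviated together from their group means in all 3 pairs. Over the probe sets tested r was 0.167, 0.179 and 0.119. These values are not independent of each other, since the deviations are from means of 3 hearts. Same-numbered ILKS343D Tg hearts and hearts of the first WT set correlated as well, at r = 0.209 and 0.170, but make only 2 pairs. With the WT sets swapped, r lay between −0.149 and −0.0199. Alternatives covered array weights, scaling, the filter, an offset of 16, the variance prior, fits with only the compared groups, each WT set alone, replicate blocks, each heart left out, the test and the choice of probe set. The atrial covariate and a block of title numbers within the range of heart numbers were added after the data were seen. Fits with a block left out ILKS343D Tg replicate 1, whose title has no number. The block within ranges also left out WT replicate 1. Plots were made in Python 3.11.15 (matplotlib 3.10.9).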

Additional observations from a re-analysis of the deposited data

Results flagged for a closer look

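Of the 23 member probe sets tested, 1 (4.35%) had its ILKR211A Tg hearts and its ILKS343D Tg hearts on opposite sides of the WT mean, where 3.96% of all probe sets tested had. This was Ryr2 1421126_at, with all ILKR211A Tg hearts above and all ILKS343D Tg hearts below the WT mean and a log2 fold change of 0.51 for ILKR211A Tg against ILKS343D Tg. The test of this difference itself gave an adjusted p of 0.124 with limma. The brightest Ryr2 probe set differed by −0.04 in the same comparison. Among the 6 WT hearts, no gap between the highest or lowest heart and its nearest neighbour, as a share of the range, exceeded Dixon's critical value for 6 samples in any of the 28 probe sets. The widest gaps were 0.61 of the range for Atp2a2 1443551_at (WT replicate 5) and 0.608 for Pln 1460332_at (WT replicate 3).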

How the results depend on the processing

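The count of member probe sets called was 0 in each of the 3 comparisons under every alternative run, and 0 with each heart left out in turn. Over the alternatives, the median log2 fold change of the members ranged from 0.02 to 0.09 for ILKR211A Tg against WT, from −0.09 to 0.02 for ILKS343D Tg against WT and from 0.03 to 0.13 for ILKR211A Tg against ILKS343D Tg, and with hearts left out from 0.01 to 0.05, from −0.06 to −0.02 and from 0.04 to 0.11. The sign of the second changed under quantile normalization, to 0.02. With the title number as a replicate block the count of members called was 0 in each comparison and the medians were 0.03, −0.06 and 0.06, and with the block of numbers within the range of heart numbers they were 0.02, −0.01 and 0.03, so that the pairing changed no call.

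Of 1285 alternative values for 48 single results, 1275 kept their side of the threshold, 0 lost a call and 0 reversed, and 10 passed the threshold that the reported value had missed, 7 of them by an unadjusted exact permutation test and 3 for Trdn as given above. Uncalled values changed sign in 87 cases. For ILKR211A Tg against ILKS343D Tg, where 36 of all probe sets were called, the count was 5 with no trend, 16 with only these groups, 55 with array weights, 8 with the replicate block, 3 with each line against the WT set of its own heart numbers, 1 with the block of numbers within those ranges and 10 to 49 with hearts left out, and the cause was not tested. For ILKS343D Tg against WT it was 3 with the second WT set alone, against 1. Dim probe sets and groups of 3 hearts limit what could be detected.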

Other observations

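For each member, the genes with the most similar signals over the 12 hearts were looked up among 11188 genes, as a description with no test. Atp2a2 was most like Ndufb8 (r = 0.985), a subunit of mitochondrial complex I, followed by Chchd10 (r = 0.969) and Tpt1 (r = 0.968). Its highest signals were those of ILKR211A Tg replicate 2 and WT replicates 3 and 4. The same hearts were highest for the ventricular markers Myl2, Myl3, Myh6, Tnni3, Tnnt2, Actc1 and Ttn, but not for Irx4 or Ryr2. Whether a level shared by bright probe sets of an array enters these r values, or those between members, was not tested. Pln was most like P2rx5 (r = 0.914) and the sarcomere genes Actn2 (r = 0.895) and Actc1 (r = 0.888). Ryr2 was most like Egln2 (r = 0.927), a prolyl hydroxylase of the hypoxia pathway, and Uqcrc2 (r = 0.878), a subunit of mitochondrial complex III. Casq2 was most like Cltc (r = 0.927), Hrc like Arid1a (r = 0.889), Slc8a1 like Gstm4 (r = 0.864), Cacna1c like Ccng2 (r = 0.920) and Camk2d like Unc5b (r = 0.898).

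Markers of fibroblasts and endothelium varied less than the atrial ones. The summed signal of 9 fibroblast markers was 12212 to 14328 in ILKR211A Tg hearts, 13646 to 14251 in ILKS343D Tg hearts and 11014 to 14031 in WT hearts, and that of 9 endothelial markers was 10684 to 12436, 11261 to 12018 and 10594 to 12169 in the same order. The mesothelial list of 5 markers summed to 257 to 425 in ILKR211A Tg hearts, 286 to 628 in ILKS343D Tg hearts and 163 to 378 in WT hearts. For the mean log2 signal of its 3 markers past the filter, exact permutation p was 0.143 and 0.0476 against WT, before any adjustment over the lists. The widest range was that of the adipocyte list, with 4 of 6 markers read by a probe set and 1 past the filter. The summed signal of the 4 was 89.8 to 403 in ILKR211A Tg hearts, 68.7 to 156 in ILKS343D Tg hearts and 55.7 to 136 in WT hearts, or 7.23-fold over all hearts. Its highest heart was ILKR211A Tg replicate 1, with signals of 212 for Adipoq and 58.2 for Ucp1. The skeletal muscle list varied by 3.08-fold, with 1361 to 1947 in ILKR211A Tg hearts, 1861 to 2345 in ILKS343D Tg hearts and 1381 to 4198 in WT hearts. Most of that sum was Acta1, the only 1 of its 11 markers past the filter. Acta1 read 1178 to 1792, 1687 to 2149 and 1222 to 4001 in the same order, so that the range is that of a single gene. The part of any of these in the values of the calcium handling genes was not tested.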
